A study of Mus musculus with 12 samples.

Results

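Cd7, Cd24a, Cd2, Cd48, Cd5, Cd6, Cd28, Icos, Cd96 and Cd226 encode molecules on the surface of T cells, and they are 10 of the 55291 gene symbols in the deposited count table. They were chosen by symbol, with earlier results of these same counts known. Cd7 had been named for its low level in rat tail collagen, and Cd24a after its values were seen. Which measurements brought in the other 8 is not recorded, so the rat tail collagen values of all 10, and every value of Cd24a, are given as a description with no test. The rule set no threshold on a value. The study, whose title concerns mechanosensing and the program of tissue-resident memory cells, measured the transcriptome of CD8+ T cells by bulk RNA sequencing. The cells came from spleens and lymph nodes of male mice, all wild type. Cells of the rat tail collagen, bovine collagen (Nutragen) and media groups had all been activated for 2 days by an anti-CD3 antibody bound to the plate and a soluble antibody to CD28, and then kept for 1 day with recombinant mouse IL-2. On day 3 they were moved for 24 h into a gel of rat tail collagen or of bovine collagen, each at 2 mg/mL, or into liquid media, and RNA was taken on day 4. The naive group was lysed fresh on day 0 without activation. Each group had 3 libraries, and the labels do not say whether a replicate number marks the same mouse. A p-value here sets the difference between groups against the spread between these libraries. The gels differ in the source of the collagen, and other differences between them are not given in the labels.

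These molecules set how strongly a T cell holds on to a partner cell and how far its antigen receptor signal is raised or damped. CD2 binds CD48 in the mouse, and both belong to an immunoglobulin family whose other members include the SLAM receptors. CD5 and CD6 are scavenger-receptor-type proteins that dampen receptor signalling, and CD6 binds ALCAM and CDCP1. CD28 binds CD80 and CD86, ICOS binds ICOS ligand, and both pass on costimulation through PI3 kinase. CD226 activates and CD96 competes with it for the same ligand, PVR (CD155). CD7 is an immunoglobulin-type receptor of T and NK cells that binds galectin-1 and, in humans, SECTM1. CD24 is a short, heavily glycosylated protein held in the membrane by a lipid anchor, known from immature thymocytes, developing B cells and red cell precursors and low on resting mature T cells. It binds P-selectin and, in the mouse, Siglec-G.

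The reading frames below show what sets 3 of these molecules apart. The whole coding sequence of Cd24a (transcript Cd24a-201, GENCODE M21 on GRCm38, chromosome 10) has only 231 bases, or 76 codons before the stop, and is printed 5′ to 3′ with its start and stop codons in capitals. Cd28 and Icos, both on chromosome 1, are the 2 of the 10 genes whose frames hold codons for Tyr-Met-any-Met, a motif that binds PI3 kinase. The other 8 have no match to this form, and other motifs that bind PI3 kinase were not searched for. The codons of the motif are in capitals, with 3 codons on either side. The stretches run from coding bases 556 to 585 of Cd28-201 and 532 to 561 of Icos-201. The motif starts at residue 189 of CD28 and at residue 181 of ICOS.
Cd24a: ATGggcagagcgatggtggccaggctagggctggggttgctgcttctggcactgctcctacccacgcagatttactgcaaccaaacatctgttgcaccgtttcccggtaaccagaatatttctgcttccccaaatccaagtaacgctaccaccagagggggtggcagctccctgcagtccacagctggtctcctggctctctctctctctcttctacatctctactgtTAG
Cd28: caaagtgacTACATGAACATGactccccgg
Icos: aatagtgaaTACATGTTCATGgcggcagtc

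Library totals ran from 28483064 to 53138362 counts. Levels are in CPM, a gene's count relative to the library's total, with edgeR's TMM factors over the 12 libraries, and differences are log2 fold changes ± SE from edgeR. All 6 markers of CD8 T cells were above 1 CPM in every group, and their summed level was 2046 to 2309 CPM in rat tail collagen, 2666 to 2904 in bovine collagen, 2642 to 2916 in media and 3438 to 4142 in naive cells. Ribosomal RNA genes held 5.03% to 13.2% of counts in rat tail collagen, 5.50% to 11.9% in bovine collagen, 4.45% to 4.72% in media and 3.96% to 5.67% in naive cells. The highest shares were in rat tail collagen 1 and 3 and bovine collagen 2, and without them, which leaves 1 rat tail library assumed to vary like the others, the differences of rat tail collagen from media were -4.56 for Cd7, 5.24 for Cd24a, 0.79 for Icos, 0.25 for Cd28 and from -1.80 (Cd96) to -0.79 (Cd226) for the other 6. Markers of other cells moved with the groups as well, and their part in the values of the 10 genes was not tested beyond what is given beside them. The 3 CD4 T cell markers summed to 59.4 to 70.8 CPM in rat tail collagen and 29.1 to 36.0 in bovine collagen. In media they summed to 25.1 to 37.7 CPM and in naive cells to 10.3 to 22.6 CPM. Most of the sum in the day 4 groups was Zbtb7b. Cd4 averaged 2.40 CPM in rat tail collagen, 2.40 in bovine collagen, 2.87 in media and 4.87 in naive cells. Foxp3 was at 3.59, 4.0 and 19.4 CPM in the rat tail collagen libraries. It averaged 1.94 CPM in bovine collagen, 1.87 in media and 3.13 in naive cells. The 3 NK cell markers summed to 8.14 to 10.3 CPM in rat tail collagen, 0.229 to 1.34 in bovine collagen, 0.449 to 0.898 in media and 14.4 to 30.6 in naive cells. In rat tail collagen nearly all of that sum was Klrb1c. The 5 stromal markers summed to 4.94 to 6.52 CPM in rat tail collagen, mostly Col1a1, against 1.17 to 1.51 in bovine collagen, 0.727 to 0.974 in media, where Col3a1 and Pdgfra were at 0, and 1.63 to 2.24 in naive cells. The 5 myeloid markers summed to 1.51 to 3.35 CPM in rat tail collagen, 2.60 to 5.52 in bovine collagen, 2.16 to 4.30 in media and 28.2 to 117 in naive cells. They did not move together between rat tail collagen and media. Itgam (1.09 against 2.98 CPM), Lyz2 (0.00952 against 0.0736) and Csf1r (0.0112 against 0.0135) were lower in rat tail collagen. Cd14 (0.902 against 0.0883 CPM) and Adgre1 (0.212 against 0.0424) were higher. The 3 platelet markers summed to 1.89 to 2.51 CPM in rat tail collagen, 3.31 to 5.77 in bovine collagen, 3.05 to 5.23 in media and 5.17 to 14.7 in naive cells. Among markers of naive T cells, Lef1 averaged 103 CPM in rat tail collagen against 312 CPM in media, Il7r 136 against 373 CPM and Ccr7 253 against 286 CPM. In bulk RNA, fewer cells of a type and less RNA per cell cannot be told apart. The strand setting of the counting is not given in the sources used here.

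In the 3 rat tail collagen libraries Cd2, Cd48, Cd5, Cd6, Cd96, Cd226 and Cd7, 7 genes, lay below all 9 other libraries, as did 17.0% of the 19392 genes. Cd24a and Icos, 2 genes, lay above all 9, as did 21.0% of the 19392. The genes were chosen with their rat tail values known, so nothing is read from these counts. Cd28 overlapped bovine collagen. Cd7 and Cd24a lay furthest from media, in opposite directions, and the others differed from media by at most 1.90 on the log2 scale.

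**Figure D1:**
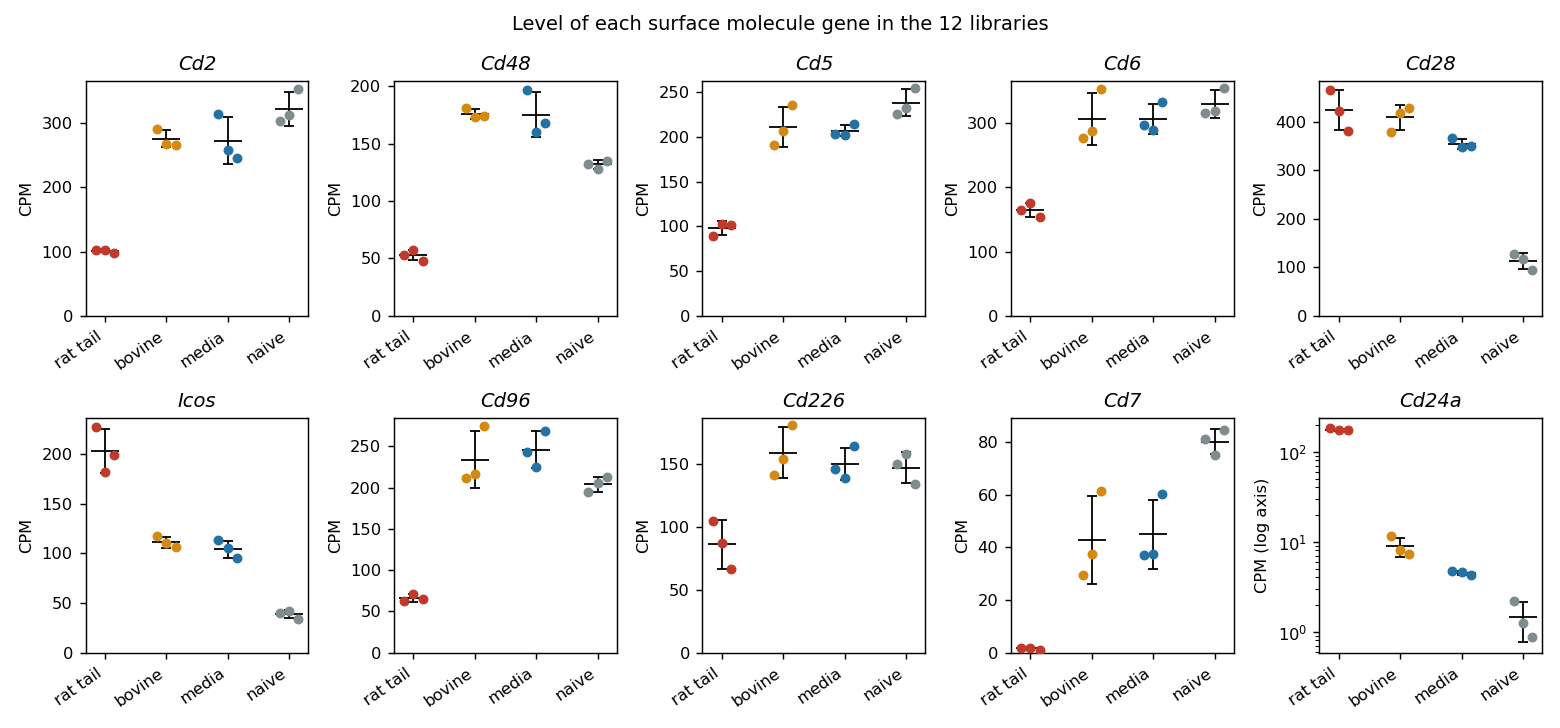
Level in CPM of each of the 10 genes, on a linear axis from 0 except for Cd24a, whose axis is logarithmic. Points are libraries, 3 per group, with the mean (line) and SD (bar), and the groups run from rat tail collagen through bovine collagen and media to naive. Cd7 lies at 1.11 to 1.91 CPM in rat tail collagen and at 29.5 CPM or more elsewhere, and Cd24a lies at 172 to 181 CPM in rat tail collagen and at 11.4 CPM or less elsewhere.

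Cd7 (chr11:121036747-121039418, minus strand, GRCm38) was at 1.83, 1.91 and 1.11 CPM in the 3 rat tail collagen libraries, against 29.5, 37.6 and 61.6 CPM in bovine collagen, 37.2, 37.7 and 60.2 CPM in media and 81.2, 75.0 and 84.6 CPM in naive cells. Those low levels rest on 61, 114 and 39 reads in rat tail collagen, against 1945, 1632 and 2814 in media. The rat tail libraries lay together far below every other library, and the third libraries of bovine collagen and of media lay above the others of their groups. The fitted difference of rat tail collagen was -4.78 ± 0.37 against media, a level 27.5-fold lower and the 15th lowest of 19392 genes, and -4.71 against bovine collagen. Bovine collagen against media gave -0.07, with an interval of 2 SE from -0.64 to 0.50. Media cells had 45.0 ± 13.1 CPM and naive cells 80.3 ± 4.85 CPM (SD, n = 3 each), and Cd7 fell in media against naive (log2 fold change -0.77, adjusted p 0.00332 by edgeR). Without the third media library this value was -1.03, and over all alternatives it lay between -1.03 and -0.64. NK cells carry CD7 too, and their markers were lower in media than in naive cells, with Ncr1 at 0.0326 CPM in media against 7.87 CPM in naive cells and the 3 markers together at 0.449 to 0.898 against 14.4 to 30.6 CPM. The part of NK cells in the Cd7 difference was not tested. Exons of Cd7 overlap those of the antisense gene Gm11775, which had 0 to 3 counts in each library.

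Cd24a (chr10:43578284-43584265, plus strand), whose short frame is printed above, ran the other way. It was at 181, 172 and 172 CPM in rat tail collagen, against 11.4, 8.13 and 7.23 CPM in bovine collagen, 4.66, 4.59 and 4.28 CPM in media and 2.18, 1.26 and 0.868 CPM in naive cells. The 4 groups did not overlap, and their order was rat tail collagen, bovine collagen, media, naive. Rat tail collagen held 6060, 10250 and 6034 reads of the gene, against 244, 199 and 200 in media and 83, 48 and 36 in naive cells. The fitted difference of rat tail collagen was 5.27 ± 0.15 against media, or 38.6-fold, the 244th highest of 19392 genes, and 4.29 against bovine collagen. Bovine collagen exceeded media by 0.98 ± 0.14, and media exceeded naive by 1.71 ± 0.29. Since B cells and red cell precursors carry CD24, their markers are given beside it. The 6 B cell markers summed to 7.81 to 9.23 CPM in rat tail collagen, 12.2 to 14.7 in bovine collagen, 12.7 to 15.5 in media and 17.7 to 23.2 in naive cells, so they were lowest where Cd24a was highest. The 6 red cell markers summed to 1.42 to 2.69 CPM in rat tail collagen, 0.153 to 0.251 in bovine collagen, 0.0855 to 0.363 in media and 1.44 to 12.1 in naive cells. Alas2 carried most of the rat tail sum and was at 0 in media, and Hbb-bs was at 0 in bovine collagen. The part of these cells in the Cd24a level was not tested. Reads shared with similar sequences elsewhere in the genome could not be followed from these counts.

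Neither gene of the costimulatory pair, CD28 and ICOS, was lower in rat tail collagen than in the other groups. Their genes lie 204.6 kb apart on chromosome 1 with 1 protein-coding gene between them, Ctla4. Icos (chr1:60977927-61000320, plus strand) was at 227, 182 and 199 CPM in rat tail collagen, against 118, 110 and 106 CPM in bovine collagen, 113, 105 and 95.0 CPM in media and 39.8, 41.8 and 34.1 CPM in naive cells. Rat tail collagen lay above all other libraries, bovine collagen and media overlapped, and naive was lowest. The fitted difference of rat tail collagen was 0.95 ± 0.09 against media and 0.85 against bovine collagen. Icos rose in media against naive by 1.50 (adjusted p 2.73e-06, edgeR), and bovine collagen against media gave 0.09 (2 SE interval -0.09 to 0.28).

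Cd28 (chr1:60716800-60773359, plus strand) was at 465, 423 and 382 CPM in rat tail collagen, against 380, 418 and 429 CPM in bovine collagen, 366, 348 and 350 CPM in media and 127, 117 and 94.5 CPM in naive cells. Both gels lay above media in all libraries and overlapped each other. The difference was 0.25 ± 0.09 for rat tail collagen against media and 0.04 for rat tail against bovine collagen. Bovine collagen against media gave 0.21 (2 SE interval 0.03 to 0.38), which passed no adjusted threshold (unadjusted p 0.0368, adjusted p 1 by edgeR). Cd28 rose in media against naive by 1.71 (adjusted p 2.5e-06, edgeR). Ctla4, the inhibitory relative that competes for the same ligands, had 207 ± 10.6 CPM in rat tail collagen, against 345 ± 6.15 in bovine collagen, 250 ± 19.4 in media and 8.75 ± 0.969 in naive cells (SD, n = 3 each). It fell in rat tail collagen against media by 0.28 on the log2 scale (adjusted p 0.00672, edgeR), against positive fitted values for both of its neighbours.

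The adhesion pair CD2 and CD48 was low in rat tail collagen on both sides. Cd2 (chr3:101275899-101287939, minus strand) was at 102, 102 and 97.9 CPM in rat tail collagen, against 290, 267 and 266 CPM in bovine collagen, 313, 258 and 245 CPM in media and 303, 312 and 352 CPM in naive cells. Cd48 (chr1:171682009-171705258, plus strand) was at 53.2, 57.2 and 48.2 CPM in rat tail collagen, against 181, 173 and 174 CPM in bovine collagen, 197, 160 and 168 CPM in media and 132, 128 and 135 CPM in naive cells. No rat tail library of either gene overlapped another group. Rat tail collagen differed from media by -1.44 ± 0.09 for Cd2 and -1.73 ± 0.09 for Cd48, and from bovine collagen by -1.46 and -1.75. Between bovine collagen and media the differences were 0.02 (2 SE interval -0.16 to 0.19) and 0.01 (-0.16 to 0.19). The pair parted in media against naive, where Cd48 rose by 0.47 (adjusted p 0.00127, edgeR) and Cd2 gave -0.18 (adjusted p 0.159). Cd2 passed the threshold in that comparison in the fit over all 12 libraries (-0.25, adjusted p 0.0319) and without media 1 (-0.29, adjusted p 0.0159), within a range of 0.0159 to 0.433 over its alternatives. The gene Gm37010 lies within Cd48 on the same strand with no exon in common and had 72 to 447 counts in each library.

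CD5 and CD6, which damp receptor signalling, are encoded 50.3 kb apart on chromosome 19 with no protein-coding gene between them. Cd5 (chr19:10717116-10739002, minus strand) was at 89.1, 103 and 102 CPM in rat tail collagen, against 191, 206 and 235 CPM in bovine collagen, 203, 202 and 214 CPM in media and 226, 232 and 254 CPM in naive cells. Cd6 (chr19:10789341-10830058, minus strand) was at 165, 175 and 154 CPM in rat tail collagen, against 277, 288 and 353 CPM in bovine collagen, 297, 289 and 332 CPM in media and 316, 319 and 355 CPM in naive cells. In both genes rat tail collagen was the low group, and neighbours among the other 3 groups overlapped. Rat tail collagen differed from media by -1.08 ± 0.09 for Cd5 and -0.90 ± 0.10 for Cd6, and from bovine collagen by -1.11 and -0.90. Media against naive gave -0.14 (adjusted p 0.132, edgeR) for Cd5 and -0.05 (adjusted p 0.65) for Cd6. In bovine collagen against media the values were 0.03 (2 SE interval -0.15 to 0.20) for Cd5 and -0.00 (-0.20 to 0.20) for Cd6.

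Promoter windows, 250 bases before to 50 after the start of the gene, were held in the RefSeq table (GRCm38.p6) for 3 of the 10 genes, Cd48, Cd96 and Cd5. Those of Cd48 and Cd96 are printed 5′ to 3′ with matches to short motifs in capitals. Among the 10 genes, Cd48 of the adhesion pair and Cd96 of the PVR receptors lay further below media in rat tail collagen. The motifs, read on both strands, were AGGAAG (an Ets core), TGTGGT (a Runx core) and CTTTGA (a Tcf/Lef core). They occur in 35.4%, 16.8% and 16.0% of all 32851 promoter windows. Cd48 (chr1:171681742-171682041, plus strand) holds 1 match to each, Cd96 (chr16:46120199-46120498, minus strand) holds 2 to the Runx core alone, and Cd5 holds 2 to the Ets core alone. A match describes the letters and is not a site of binding.
Cd48: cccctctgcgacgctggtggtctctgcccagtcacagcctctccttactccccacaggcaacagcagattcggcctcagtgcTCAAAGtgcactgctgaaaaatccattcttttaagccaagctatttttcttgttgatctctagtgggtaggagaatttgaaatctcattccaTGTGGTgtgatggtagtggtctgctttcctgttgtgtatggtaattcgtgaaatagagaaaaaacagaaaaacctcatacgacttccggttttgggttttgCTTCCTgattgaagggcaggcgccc
Cd96: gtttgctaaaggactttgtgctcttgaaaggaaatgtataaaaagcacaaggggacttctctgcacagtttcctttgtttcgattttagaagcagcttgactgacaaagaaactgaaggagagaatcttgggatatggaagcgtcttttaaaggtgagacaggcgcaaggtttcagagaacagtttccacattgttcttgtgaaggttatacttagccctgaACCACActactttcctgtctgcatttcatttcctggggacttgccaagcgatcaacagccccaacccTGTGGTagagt

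Cd96 and Cd226, the genes of PVR receptors chosen here, were low in rat tail collagen, the competing receptor more than the activating one. This does not extend to all related receptors. Tigit, from the list of other receptors of the same families, averaged 25.1 CPM in rat tail collagen against 29.9 CPM in media, with overlapping libraries. Its difference of -0.26 did not pass the test (adjusted p 0.355, edgeR). Cd96 (chr16:46035657-46120251, minus strand) was at 62.3, 70.7 and 65.6 CPM in rat tail collagen, against 211, 216 and 274 CPM in bovine collagen, 243, 225 and 269 CPM in media and 195, 206 and 213 CPM in naive cells. Cd226 (chr18:89176967-89272229, plus strand) was at 105, 87.1 and 66.3 CPM in rat tail collagen, against 141, 154 and 181 CPM in bovine collagen, 146, 139 and 164 CPM in media and 150, 158 and 134 CPM in naive cells. For Cd226 the spread in rat tail collagen was wide, 86.0 ± 19.2 CPM (SD, n = 3), with its highest library still below all others. The difference from media was -1.90 ± 0.11 for Cd96 and -0.81 ± 0.15 for Cd226, and from bovine collagen -1.83 and -0.89. Cd96 rose in media against naive by 0.33 (adjusted p 0.0078, edgeR), a call that was lost without naive 1 (0.27, adjusted p 0.058) and that ranged from 0.00123 to 0.058 over the alternatives. Cd226 gave 0.08 in that comparison (adjusted p 0.456). Bovine collagen against media gave -0.07 (2 SE interval -0.28 to 0.14) for Cd96 and 0.08 (-0.21 to 0.38) for Cd226. Pvr itself, the shared ligand, had 18.9 ± 0.196 CPM in rat tail collagen, against 20.4 ± 1.46 in media (SD, n = 3 each). That difference of -0.11 did not pass the test (adjusted p 0.29, edgeR). Nectin2, another of the listed ligands, had 5.36 CPM in rat tail collagen against 0.471 CPM in media (3.46, adjusted p 1.95e-05, edgeR). Its media level rests on 70 reads in all.

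**Figure D2:**
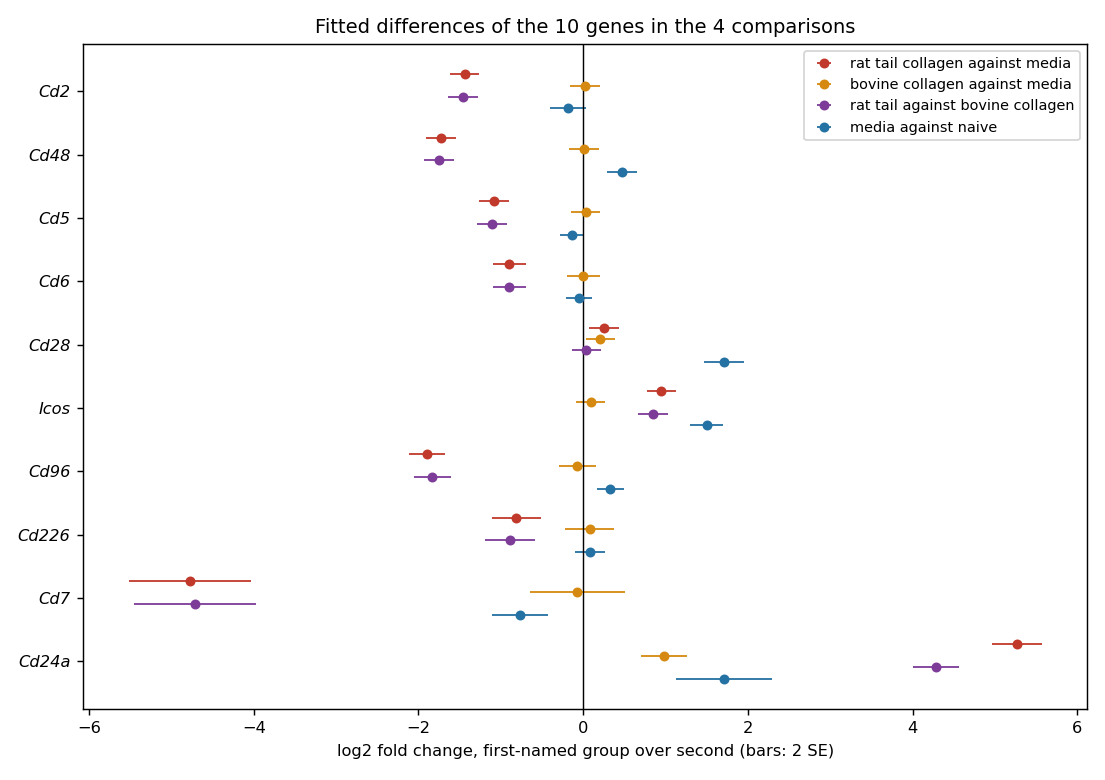
Fitted log2 fold changes (points) with 2 SE on either side (bars) of the 10 genes in the 4 comparisons, the first-named group over the second. The values for rat tail collagen run from -4.78 for Cd7 to 5.27 for Cd24a, while those for bovine collagen against media lie between -0.07 and 0.21 for all genes but Cd24a, at 0.98.

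Set against all genes, the counts over the 10 were as follows. In rat tail collagen against media edgeR called 3 of the 10 higher and 7 lower, with all 10 not overlapping between the groups, where 29.7% of 19392 genes were called higher, 28.7% lower and 64.8% did not overlap. In rat tail against bovine collagen 2 were called higher and 7 lower and 9 did not overlap, where 28.4% of genes were called higher, 26.4% lower and 63.8% did not overlap. These 2 comparisons are taken as used in the choice of the genes and share the rat tail libraries, so nothing is read from their counts. In media against naive 5 were called higher (Cd24a, Cd28, Icos, Cd48 and Cd96) and 1 lower (Cd7), and 7 did not overlap, Cd24a being counted but not read as a test, where 31.6% of 18610 genes were called higher, 29.2% lower and 67.6% did not overlap. In bovine collagen against media edgeR called 0 of the 10 in either direction, where it called 0.0206% of genes higher and 0% lower. In that comparison 2 of the 10, Cd28 and Cd24a, had an unadjusted p under 0.05 by edgeR. Their libraries did not overlap between the groups, as for 8.78% of genes. DESeq2 called 1 of the 10, Cd24a, and limma-voom 0. Here too Cd24a is counted but not read as a test. The median log2 fold change of the 10 was -0.99, -1.0, 0.21 and 0.02 in these 4 comparisons, against -0.01, 0.0, -0.0 and -0.01 over all genes tested. Both comparisons against media, and media against naive, share the media libraries.

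The levels per kilobase of annotated exon allow genes to be set against each other. They put other molecules at the top in rat tail collagen than in the remaining groups, which shared theirs. In rat tail collagen Cd28 led with 69.2 ± 6.8 CPM per kb, followed by Cd24a with 67.9 ± 2.09, Icos with 59.1 ± 6.57 and Cd2 with 57.8 ± 1.36 (SD, n = 3), and by library Cd28 overlapped Cd24a and Icos overlapped Cd2. Cd7 was last there, at 1.43 ± 0.386 CPM per kb. In bovine collagen, media and naive cells Cd2 led, with 158 ± 7.69, 156 ± 20.7 and 185 ± 15.2 CPM per kb, ahead of Cd48 and Cd96, and Cd24a was last with 3.45, 1.75 and 0.556 CPM per kb. Cd28 and Icos held the 8th and 9th places in naive cells. Between libraries of 1 group, Cd24a in naive cells and Cd7 in bovine collagen varied most, with coefficients of variation of 46.9% and 39.0%.

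**Figure D3:**
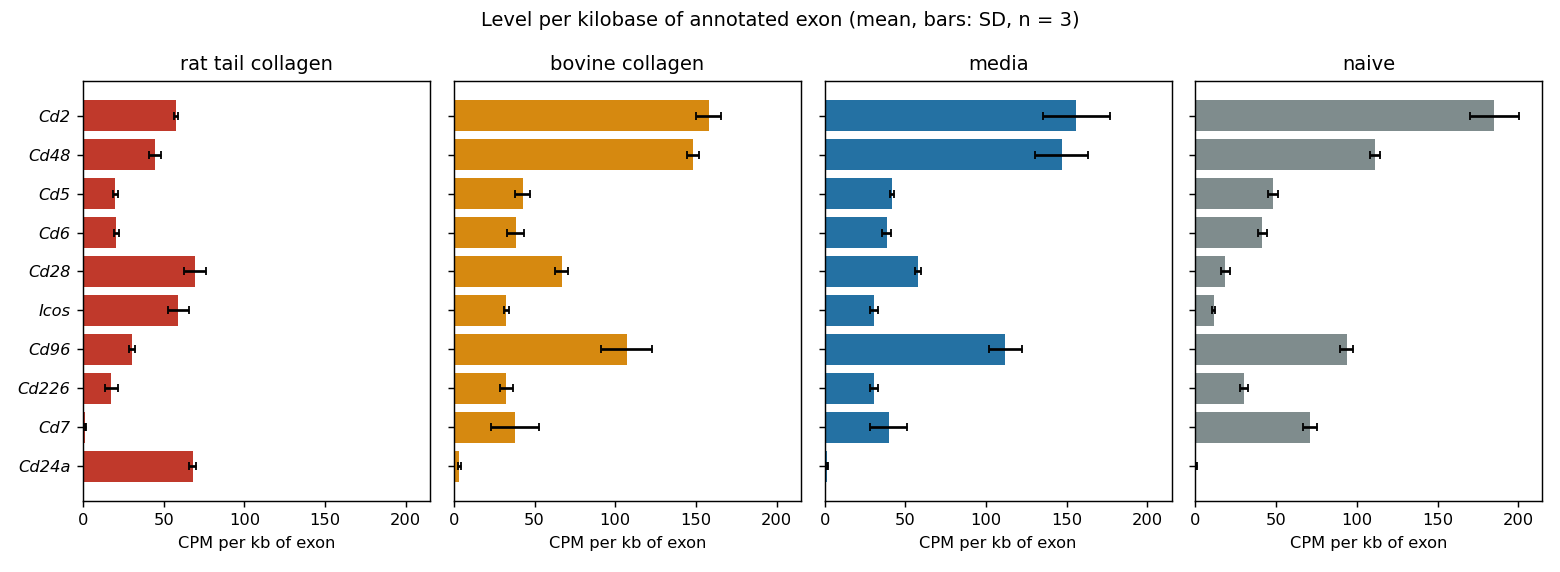
Mean level of the 10 genes in CPM per kilobase of annotated exon (bars) with the SD of 3 libraries (error bars), 1 panel per group. Cd24a, Cd28 and Icos make up 3 of the 4 longest bars in rat tail collagen, and Cd2, Cd48 and Cd96 are the longest in the other 3 groups.

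Of 15 listed ligands and counter-receptors of these molecules, 12 were tested. In rat tail collagen against media edgeR called 4 higher and 3 lower, shares near the 29.7% and 28.7% of all genes (median -0.17, against -0.01 for all genes), and the count of lower calls was 5 with the replicate block and without rat tail collagen 1, and 6 without a filter. Cd80, a ligand of CD28 and CTLA-4, was at 116, 117 and 121 CPM in rat tail collagen, against 15.7, 17.0 and 13.6 CPM in media, and rose by 2.93 (adjusted p 2.84e-09). The other ligand of that pair, Cd86, was at 2.18, 1.88 and 1.8 CPM in rat tail collagen, against 6.57, 7.29 and 6.99 CPM in media, and fell (-1.84, adjusted p 7.29e-07). The CD6 ligand Cdcp1 was at 4.91, 3.48 and 4.31 CPM in rat tail collagen, against 0, 0.0692 and 0.0642 CPM in media (6.53, adjusted p 3.25e-07), a base of few reads. Nectin1 (4.09, adjusted p 3.36e-06), a nectin that binds CD96 in the mouse, also rose, at 1.74 CPM in rat tail collagen against 0.0948 CPM in media on average. Rat tail against bovine collagen gave 4 higher and 4 lower. In bovine collagen against media edgeR, DESeq2 and limma-voom called 0 of the 12, and 0 had an unadjusted p under 0.05. In media against naive 4 of 11 were called higher and 6 lower.

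Most of the other receptors of the same families fell in rat tail collagen. Of 14 listed, 11 were tested, and edgeR called 8 lower and 1 higher against media (median -1.35). Over all genes tested, 28.7% were called lower and 29.7% higher (median -0.01). Among the SLAM family, Cd84 had 30.1 CPM in rat tail collagen against 90.3 in media (-1.59, adjusted p 6.97e-08), Slamf6 52.0 against 179 CPM (-1.79, adjusted p 3.15e-06) and Ly9 45.2 against 114 CPM (-1.35, adjusted p 4.18e-06). The exception was Pdcd1, which encodes the inhibitory receptor PD-1, with 22.5 CPM in rat tail collagen against 8.58 CPM in media (1.38, adjusted p 8.81e-06). EdgeR called 0 of 11 in bovine collagen against media, with 1 at an unadjusted p under 0.05, while DESeq2 called 1 higher and limma-voom 0. Rat tail against bovine collagen gave 2 higher and 8 lower. In media against naive 5 of 13 were called higher and 6 lower.

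Genes of the cytoplasmic partners that bind the tails of these receptors or pass on their signal were mostly lower in rat tail collagen. Of 23 listed, 22 were tested, and edgeR called 17 lower and 0 higher against media (median -0.52). Over all genes tested, 28.7% were called lower and 29.7% higher (median -0.01). In either direction 20 of the 22 had an unadjusted p under 0.05 by edgeR. DESeq2 and the replicate block called 2 higher, limma-voom 0, and the alternatives together 0 to 3. Pstpip1, whose product binds the CD2 tail, had 61.0 CPM in rat tail collagen against 162 CPM in media (-1.42, adjusted p 2.25e-08). Prkcq, the protein kinase C of the CD28 pathway, had 136 against 361 CPM (-1.41, adjusted p 6.38e-08). The adaptor gene Grap2 had 245 against 592 CPM (-1.28, adjusted p 3.57e-06), and Ubash3a, which encodes a negative regulator of receptor signalling, 66.8 against 148 CPM (-1.15, adjusted p 3.93e-07). Rat tail against bovine collagen gave 1 higher and 17 lower, and 11 lower without the 3 libraries of highest ribosomal RNA share or with library totals. In bovine collagen against media edgeR, DESeq2 and limma-voom called 0 of 22, and 0 had an unadjusted p under 0.05. In media against naive 6 of 23 were called higher and 12 lower.

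A list of 20 other T cell surface molecules gave 2 higher and 12 lower in rat tail collagen against media (median -0.29, edgeR). Over all genes tested, 29.7% were called higher and 28.7% lower (median -0.01). Cd27, a TNF receptor family costimulator, had 94.6 CPM in rat tail collagen against 241 CPM in media (-1.36, adjusted p 2e-07), and Selplg, the P-selectin ligand PSGL-1, 260 against 655 CPM (-1.34, adjusted p 3.17e-06). Cd52 was lower as well, with 211 against 406 CPM (-0.95, adjusted p 2.45e-06). The tetraspanin gene Cd81 rose, with 43.9 CPM in rat tail collagen against 6.63 CPM in media (2.72, adjusted p 2.71e-06). The coreceptor genes Cd8a (-0.21, adjusted p 0.117) and Cd8b1 (-0.17, adjusted p 0.13) did not pass the test. Rat tail against bovine collagen gave 2 higher and 12 lower. In bovine collagen against media the 3 tools called 0 of 20, and 0 had an unadjusted p under 0.05. Media against naive gave 7 higher and 5 lower.

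**Figure D4:**
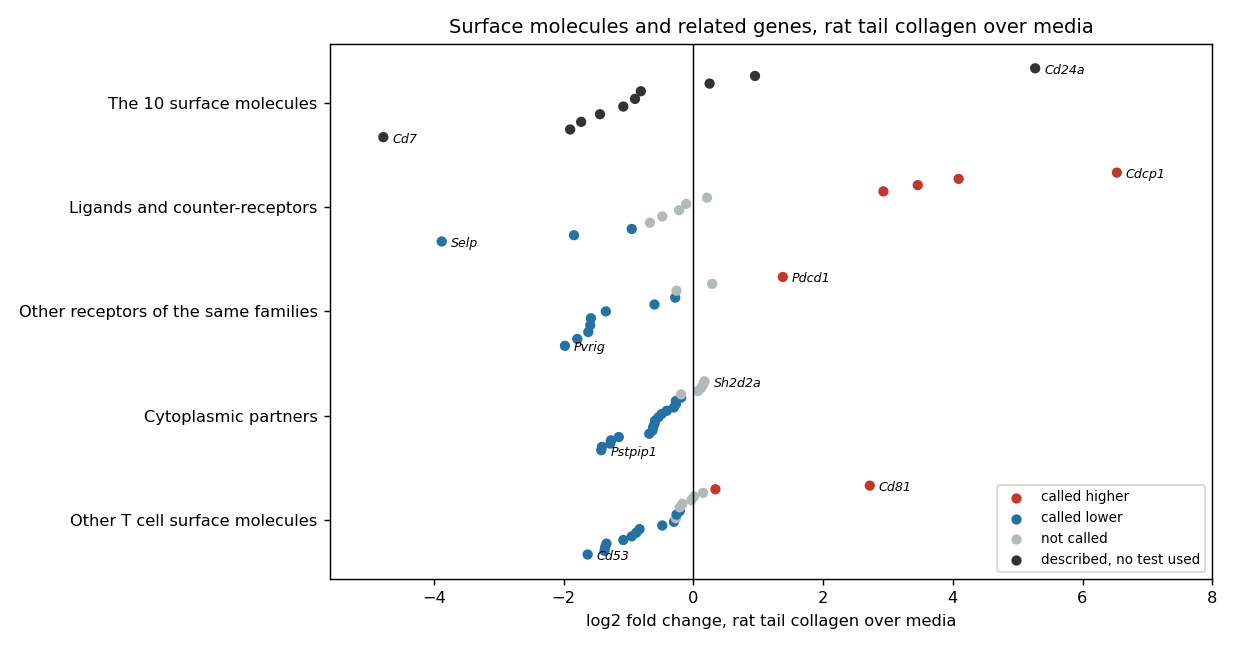
Log2 fold changes of rat tail collagen over media for the 10 surface molecules and 4 lists of related genes, 1 point per gene, with edgeR's calls by colour. The points of the other receptors and of the cytoplasmic partners lie mostly left of 0, while the ligands spread from Selp at -3.88 to Cdcp1 at 6.53.

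The genes whose pattern over the 12 libraries was most like that of Cd7 and Cd24a were found among 10178 genes by the root mean square difference of log2 CPM, each gene centred on its own mean. For Cd7 they were Ifi206 (0.25), Ifi208 (0.35), Ifit1bl1 (0.49), Gpr183 (0.57) and Bace1 (0.57). Ifi206 averaged 5.63 CPM in rat tail collagen, 114 in bovine collagen, 126 in media and 212 in naive cells. Ifi206 and Ifi208 belong to the HIN-200 family, whose copies are similar in sequence, so the counting may have split their reads. For Cd24a they included Prph (0.41), Slc6a9 (0.44), Dsp (0.45) and Ypel4 (0.52). Slc6a9, a glycine transporter gene, averaged 31.0 CPM in rat tail collagen, 1.57 in bovine collagen, 1.28 in media and 0.306 in naive cells. Each of these genes was listed for its likeness, and its values are a description.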

How the data were processed

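RNA of 12 libraries of mouse CD8+ T cells, 3 each of rat tail collagen, bovine collagen, media and naive, was sequenced in bulk after DNase treatment and depletion of ribosomal RNA, from 150 ng per library, per the labels' protocols. Per the submitters' processing notes the authors used FastQC, MultiQC, HISAT2, SAMtools, Picard and featureCounts with GRCm38 and mm10. Versions, the strand setting and the release of the annotation were not given in the sources used here. Raw read counts per gene symbol were deposited by the authors, and these were used unchanged, after libraries of a group had been compared and found to differ beyond sampling noise. Locations and exon lengths come from GENCODE M21, which holds 53291 of the 55291 symbols.

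Groups were tested with edgeR 4.0.16 in R 4.3.3 by the quasi-likelihood F test with robust estimation, TMM factors and filterByExpr, and an adjusted p (Benjamini-Hochberg over all genes tested) under 0.05 made a call. For day 4, 9 libraries entered 1 fit (19392 genes), and media and naive had a fit of their own (18610 genes). The biological coefficient of variation was 12.2% and 13.5%. Alternatives used limma 3.58.1, DESeq2 1.42.0, other factors, filters, sets of libraries, a block for the replicate number, and each library left out; library totals were added after seeing the data. The pipeline was tested on simulated data. All 10 genes are named in each comparison. Each list of related genes gave the 4 with the smallest adjusted p in rat tail collagen against media. Ctla4, Pvr, Nectin2, Tigit, Cd8a, Cd8b1 and Selp were added after their values were seen. Likeness was ranked among genes with a mean of 5 CPM or more in their highest group. The genes, lists and tests were chosen with earlier results of these data known. Some results that these rules name are not reported here. Reads were not analysed here.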

Additional observations from a re-analysis of the deposited data

How the results depend on the processing

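In rat tail collagen against media 11319 genes were called, and 6726 without the 3 libraries with the highest share of ribosomal RNA. In rat tail against bovine collagen these counts were 10617 and 5485. The cause was not tested, although fewer libraries entered. Bovine collagen against media called 4 genes, against 9 with library totals, 22 with DESeq2, 39 without a filter, 7 with the replicate block, 2 with only the 6 libraries compared, 1 without the 3 libraries and 2 to 5 when single libraries were left out. Of the 10 surface molecules 0 were called there, against 1, Cd24a, with library totals, DESeq2, no filter and the replicate block. With single libraries left out the count was 0 to 1, the 1 without bovine collagen 1 or 3. Cd24a is counted here but not read as a test. The other counts over the 10 stayed at 9 to 10 in rat tail collagen against media, 9 in rat tail against bovine collagen and 5 to 7 in media against naive when single libraries were left out. Library totals split the calls of rat tail against bovine collagen into 6329 higher and 3221 lower, against 5499 and 5118 with TMM, and moved the median of all genes to 0.15. Cd28 in rat tail collagen against media lay between 0.18 and 0.32 and was no longer called under 6 alternatives.

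Values near 0 changed sign. In bovine collagen against media Cd6 gave 0.00 with RLE factors, DESeq2 and only the 6 libraries, and 0.03 without the 3 libraries. Library totals gave -0.07 for Cd2 and Cd48, -0.06 for Cd5 and -0.00 for Cd226. Cd7 gave 0.01 without the 3 libraries. With single libraries left out the values ran from -0.05 to 0.12 for Cd2, -0.04 to 0.10 for Cd48, -0.05 to 0.09 for Cd5, -0.11 to 0.07 for Cd6, -0.19 to 0.00 for Cd96, -0.01 to 0.16 for Cd226 and -0.42 to 0.20 for Cd7. Cd28 in rat tail against bovine collagen gave -0.00 without a filter and -0.03 to 0.11 with single libraries left out. The cause was not tested.

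Replicate numbers were not used as pairs in the main fit, since the correlations of same-numbered libraries were not all over 0.1. Whether the numbers mark paired libraries is not known. Every library correlated best with its own number in rat tail collagen with media and with naive (6 of 6 each), and in 2 to 5 of 6 in the other pairs of groups. In rat tail collagen against media the replicate block also moved the ligands called lower to 5, against 3, and the cytoplasmic partners called higher to 2, against 0, and it changed no other call count by over 1.5 times. Depth limits Cdcp1, Nectin1 and Nectin2 in media.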
